A study of Mus musculus with 16 samples.

Results

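The genes described here are 10 genes of the endoplasmic reticulum (ER) stress response and of the integrated stress response, taken by name from the 22298 mouse genes counted in each tumor. They are *Atf4*, *Ddit3*, *Trib3*, *Asns* and *Chac1*, which belong to the ATF4 arm, and *Hspa5*, *Herpud1*, *Dnajb9*, *Xbp1* and *Sdf2l1*, which act in or on the ER. MFC cells, a mouse forestomach carcinoma line of wild-type genotype, were injected into the peritoneal cavity of 6-week-old, sex-matched 615-line mice, the strain in which this line grows as a syngeneic tumor. The vehicle group received PBS, and the IL-33 treatment group received IL-33, a cytokine of the IL-1 family, at 20 μg/kg into the peritoneal cavity every 2 days. From 8 tumors of each group, poly(A) RNA was sequenced by a company. The tumors are whole tissue, with host cells beside the injected line. The labels do not tie tumors to mice, and the group sizes given for experiments in this model are in part below and in part above the 8 tumors sequenced, so whether tumors share a mouse is not known, and p-values measure the spread between tumors.

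Proteins that fold poorly in the ER draw the chaperone BiP away from membrane sensors, which start the unfolded protein response. The sensor IRE1 splices *Xbp1* messenger RNA, ATF6 is cut to release a transcription factor, and both raise chaperones and degradation factors. The kinase PERK, like other kinases that sense amino acid shortage, double-stranded RNA or heme shortage, phosphorylates eIF2, which slows translation in general but favors that of ATF4, a transcription factor for amino acid supply and, under lasting stress, for genes linked to cell death.

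The total count lay between 14139268 and 24290794 in vehicle tumors and between 16569613 and 24288893 in IL-33 tumors. Levels are given as CPM, the count of a gene scaled to the total count of its tumor. At this depth the lowest count of any of the 10 genes in a tumor was 61 (*Chac1*) and the highest was 41513 (*Hspa5*), so each of the 10 genes was counted in each tumor.

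A pair of libraries stood apart from the rest. Vehicle replicate 4 had the lowest TMM scaling factor, edgeR's correction of library size for composition, at 0.64, against 0.895 to 1.10 in the 14 tumors other than IL-33 replicate 7. The summed level of 5 red blood cell genes, of which *Hba-a1* was the most abundant, was 12804 CPM in vehicle replicate 4, with 2844 CPM as the next highest. There the 5 neutrophil genes, led by *S100a9*, summed to 464 CPM, with at most 160.2 CPM elsewhere, through *S100a8*, *S100a9* and *Retnlg*, while *Csf3r* and *Cxcr2* were within the range of the others. The 13 mitochondrial transcripts, led by *mt-Co1*, summed to 15144 CPM there, the lowest sum of the 16 on plain CPM, although *mt-Nd6* and *mt-Nd3* were at their highest. Of the 16817 genes tested, 40.5% had their lowest CPM of all tumors in this library.

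IL-33 replicate 7 had the highest scaling factor, 1.24, and 17425 genes with a count, against 14701 to 15732 in the other tumors. It held 1715 CPM of 8 uterus and oviduct genes, led by *Ovgp1*, where the others had 6.72 CPM or less, and 958 CPM of 7 ovary genes, led by *Cyp11a1*, with at most 8.22 CPM elsewhere. The defining ovary gene *Foxl2* was at 0 in the 15 other tumors. In this library the 6 fibroblast genes, led by *Col3a1*, summed to 14253 CPM, against at most 6799 CPM elsewhere. The 5 genes of dividing cells, led by *Top2a*, summed to 203 CPM there and to between 431 and 1285 CPM in the others. Of the epithelial genes expected of a carcinoma line, *Krt8* (181 to 975 CPM) and *Krt19* (44.5 to 690.2 CPM) were abundant in each tumor, while *Epcam* was at most 2.40 CPM in the 15 tumors other than IL-33 replicate 7, where it was 98.8 CPM, and *Krt5* was at 0 in 13 tumors. Many results below are therefore also given without IL-33 replicate 7, without vehicle replicate 4 or without both.

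The comparison asks whether transcripts of these stress pathways differed between tumors of mice given IL-33 and tumors of mice given vehicle. With edgeR's quasi-likelihood test, 0 of the 10 genes had an unadjusted p under 0.05, where 11.2% of the 16817 tested genes did, 9.99% (1680 genes) as higher and 1.17% (196 genes) as lower in the IL-33 treatment group. At an adjusted p under 0.05 the same test called 0 genes, or 0%, and DESeq2 and limma voom with sample quality weights also called 0, with 424 higher and 267 lower genes and 522 higher and 444 lower genes at an unadjusted p under 0.05. The unadjusted p of the 10 genes ranged from 0.133 (*Xbp1*) to 0.867 (*Trib3*), and their adjusted p over all tested genes from 0.600 to 0.977. Fitted fold changes were above 0 on the log2 scale for 2 genes and below 0 for 8, with a median of -0.14 for the 10 and 0.06 for all tested genes.

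The count over all genes depended on single tumors. Without IL-33 replicate 7, 289 genes were higher and 362 lower by edgeR, together 4.12% of those tested. Again 0 of the 10 stress genes passed, with 4 fitted above 0 and 6 below, and a median over all tested genes of -0.01. The number of lower genes was 111 when vehicle replicate 4 was left out, 307 for IL-33 replicate 3 and 127 for IL-33 replicate 5. With IL-33 replicate 7 and vehicle replicate 4 both left out, 330 genes were higher (2.10% of those tested) and 329 lower (2.09%). In that setting 0 of the 10 passed and 6 of the 10 were fitted above 0, with a median over all tested genes of 0.01.

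**Figure D1:**
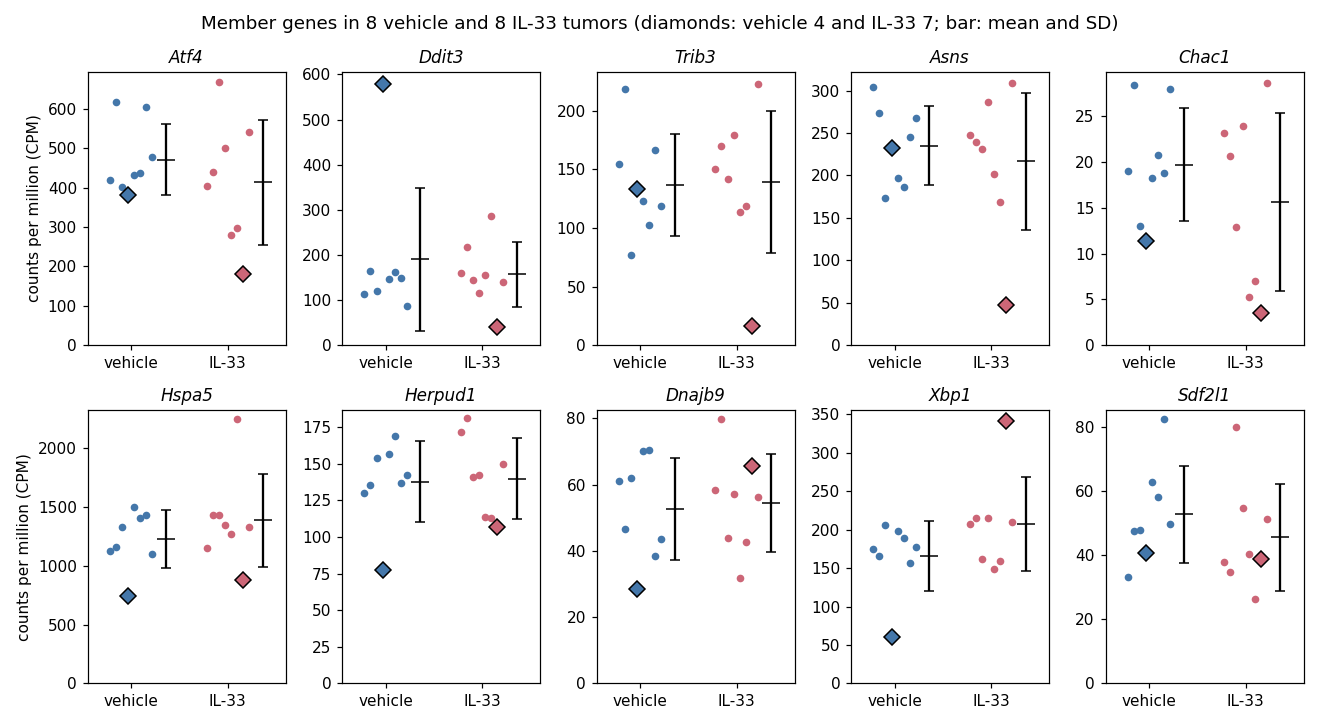
Level of each of the 10 genes in CPM (vertical axes, starting at 0) in 8 vehicle and 8 IL-33 tumors, 1 point per tumor, with the group mean and SD as a bar; diamonds mark vehicle replicate 4 and IL-33 replicate 7. The groups overlap for each gene, *Ddit3* reached 578 CPM in vehicle replicate 4, and *Trib3* was at 16.1 CPM in IL-33 replicate 7.

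*Atf4* encodes the transcription factor at the center of the integrated stress response, which is controlled mainly by translation, so that its RNA level is one part of its control. Its lowest, median and highest levels were 382, 434 and 618 CPM in the vehicle group and 179.6, 423 and 669.6 CPM in the IL-33 treatment group. Values overlapped, the IL-33 tumors spread further to both sides, and IL-33 replicates 5, 6 and 7 lay below each vehicle tumor. The fitted log2 fold change was -0.27 (SE 0.23), with p = 0.252 by edgeR and 0.281 by the exact permutation test of log2(CPM + 0.5), a difference smaller than the spread between tumors. In these whole tumors, fewer cells of a type and less RNA per cell cannot be told apart. Without IL-33 replicate 7 the log2 fold change was -0.14 (SE 0.17), with p = 0.419 by edgeR and 0.557 by the exact permutation test.

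*Ddit3* encodes CHOP, a transcription factor that is raised under lasting ER stress and is linked to cell death. In the vehicle group its lowest, median and highest levels were 85.8, 148 and 578 CPM. In the IL-33 treatment group they were 40.9, 149.9 and 287 CPM. A single tumor of each group stood out: vehicle replicate 4 was the highest of the 16, 3.93 times the median of the others (6.36 times on TMM-scaled CPM), and IL-33 replicate 7 was the lowest, at 0.274 times that median. Without vehicle replicate 4 the vehicle tumors lay between 85.8 and 164 CPM, and 6 of 8 IL-33 tumors exceeded their mean of 135 CPM.

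The direction of the *Ddit3* difference depended on the tumors included and on the method. By edgeR the log2 fold change was -0.52 (SE 0.49, p = 0.305, exact permutation p = 0.678) over 16 tumors and 0.27 (SE 0.33, p = 0.419, exact permutation p = 0.825) without vehicle replicate 4. It was also above 0 over 16 tumors by DESeq2, at 0.26, and by limma voom with sample quality weights, at 0.28. With both libraries left out, edgeR gave 0.43 (SE 0.22, p = 0.0753, exact permutation p = 0.147), and leaving out IL-33 replicate 7 alone gave -0.37 (SE 0.47, p = 0.442). There the mean log2 difference on plain CPM was 0.07 (exact permutation p = 0.862), against -0.18 over 16 tumors. None of these fits passed the threshold. The part of red blood cell, neutrophil or mitochondrial transcripts in the level of vehicle replicate 4 was not tested.

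*Ddit3* shares 68 exon bases, 3.97% of its merged exons, with *Mars* on the opposite strand, and the strand setting of the counting is not given in the sources used here. *Mars* was 122 CPM in vehicle replicate 4 and between 56.9 and 194 CPM in the other tumors. On TMM-scaled CPM it was at 190.2 CPM in vehicle replicate 4, the highest of the 16, with 188 CPM as the next. The part of counts from *Mars* in the *Ddit3* level was not tested.

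*Trib3* encodes a pseudokinase that ATF4 and CHOP induce and that dampens signaling through Akt. Its lowest, median and highest levels were 76.8, 128 and 218 CPM in the vehicle group and 16.1, 146 and 223 CPM in the IL-33 treatment group. Values overlapped apart from IL-33 replicate 7, which lay far below, with the next lowest IL-33 tumor at 114 CPM. By edgeR the log2 fold change was -0.06 (SE 0.36, p = 0.867, exact permutation p = 0.844), and it turned to 0.12 (SE 0.20, p = 0.561, exact permutation p = 0.313) without IL-33 replicate 7. It was also above 0 without vehicle replicate 2 (0.04) and without vehicle replicate 4 (0.04).

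*Asns* encodes asparagine synthetase, a classical target of ATF4 when amino acids run short. Vehicle tumors ranged from 173 to 304 CPM around a median of 239 CPM, and IL-33 tumors from 47.6 to 309 CPM around a median of 235 CPM. As for *Trib3*, IL-33 replicate 7 was the lowest tumor, at 0.198 times the median of the others, and the remaining tumors of both groups covered the same range. The log2 fold change by edgeR was -0.21 (SE 0.28, p = 0.468, exact permutation p = 0.591) over 16 tumors and -0.04 (SE 0.16, p = 0.781) without that tumor, where the mean log2 difference on plain CPM was 0.03 (exact permutation p = 0.818).

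*Chac1* encodes an enzyme that breaks down glutathione and is induced through ATF4. It was the least abundant of the 10 genes, with lowest, median and highest levels of 11.4, 18.9 and 28.4 CPM in the vehicle group and 3.48, 16.8 and 28.6 CPM in the IL-33 treatment group. Here 3 IL-33 tumors lay below each vehicle tumor, replicate 5 at 5.27 CPM, replicate 6 at 7.03 CPM and replicate 7 at 3.48 CPM, while the other 5 overlapped the vehicle group. They are the tumors that were also lowest for *Atf4*. The log2 fold change of -0.40 (SE 0.37) had p = 0.284 by edgeR and 0.193 by the exact permutation test, and was -0.24 (SE 0.29, p = 0.430 by edgeR) without IL-33 replicate 7.

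In IL-33 replicate 7, then, the 5 genes of the ATF4 arm were each at their lowest of the 16 tumors, in a library that also held the fewest transcripts of dividing cells and most of the uterus, oviduct and ovary transcripts. The part of this tissue in the low levels was not tested. Of all tested genes, 10.1% were at their lowest in IL-33 replicate 7, and 20.7% on TMM-scaled CPM. Vehicle replicate 4 was within the range of the other tumors on plain CPM for *Trib3* and *Asns*, at 133 CPM and 233 CPM, while on TMM-scaled CPM it was the highest of the 16 for both, at 208 and 364 CPM (next highest 207 and 295 CPM).

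*Hspa5* encodes BiP, the main chaperone of the ER lumen and the brake on the stress sensors. Its levels in the vehicle group were 742 CPM at the lowest, 1244 CPM at the median and 1498 CPM at the highest. In the IL-33 treatment group they were 879, 1336 and 2245 CPM. IL-33 replicate 6 was well above the other tumors of both groups, vehicle replicate 4 and IL-33 replicate 7 were the lowest on plain CPM, and the rest overlapped. On TMM-scaled CPM vehicle replicate 4 was at 1159.9 CPM, among the other vehicle tumors. The log2 fold change was 0.13 (SE 0.20, p = 0.513 by edgeR, exact permutation p = 0.376), and 0.24 (SE 0.17, p = 0.174, exact permutation p = 0.168) without IL-33 replicate 7. Leaving out IL-33 replicate 6 turned it to -0.05.

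*Herpud1* encodes an ER membrane protein that helps to assemble the degradation machinery for misfolded proteins. Vehicle tumors ranged from 77.3 to 169 CPM with a median of 139 CPM, and IL-33 tumors from 107 to 181 CPM with a median of 142 CPM. The lowest level was that of vehicle replicate 4, and the other 15 tumors formed one overlapping range. On TMM-scaled CPM that tumor was at 121 CPM, beside vehicle replicate 1 at 126 CPM, and IL-33 replicate 7 was the lowest at 85.8 CPM. The log2 fold change was -0.04 (SE 0.14, p = 0.768 by edgeR), was 0.04 (SE 0.12, p = 0.764) without IL-33 replicate 7, and on plain CPM the mean log2 difference was 0.03 (p = 0.863 by the exact permutation test), so that its direction differed with the scaling and with the tumors included. On plain CPM it was -0.08 without vehicle replicate 4 and -0.03 without both libraries. Without vehicle replicate 6 the fitted value was 0.0064.

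*Dnajb9* encodes ERdj4, a partner of BiP and a target of XBP1. Its lowest, median and highest levels were 28.6, 53.8 and 70.6 CPM in the vehicle group and 31.9, 56.8 and 79.9 CPM in the IL-33 treatment group. Both groups covered nearly the same range. The log2 fold change was -0.03 (SE 0.18, p = 0.859 by edgeR) over 16 tumors and -0.03 (SE 0.19, p = 0.872) without IL-33 replicate 7, while the mean log2 difference on plain CPM was 0.06 (p = 0.786 by the exact permutation test). The fitted value was also above 0 without vehicle replicate 5 (0.04), vehicle replicate 6 (0.04), IL-33 replicate 3 (0.0043) or IL-33 replicate 5 (0.04).

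*Xbp1* encodes the transcription factor that IRE1 activates by splicing, and it is abundant in secretory cells, plasma cells above all. The counts are per gene and do not separate spliced from unspliced transcripts. Its lowest, median and highest levels were 60.6, 176 and 207 CPM in the vehicle group and 149, 209 and 342 CPM in the IL-33 treatment group. That vehicle tumor at 60.6 CPM was replicate 4 and the IL-33 tumor at 342 CPM was replicate 7, so the libraries that stood apart were at opposite ends. In 5 of 8 IL-33 tumors the level was above the highest vehicle tumor, though 4 of the 5 exceeded it by a small margin. On TMM-scaled CPM the highest vehicle tumor was at 201 CPM and 3 of 8 IL-33 tumors were above it.

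With p = 0.133 by edgeR, *Xbp1* had the smallest p of the 10 genes, at a log2 fold change of 0.25 (SE 0.16), and the exact permutation test gave 0.173. By edgeR it was 0.17 (SE 0.15, p = 0.265) without IL-33 replicate 7, 0.15 (SE 0.12, p = 0.218) without vehicle replicate 4 and 0.08 (SE 0.10, p = 0.433) without both, where the exact permutation test gave 0.375, 0.352 and 0.647. Beside it, the summed level of 11 plasma cell genes, led by *Igkc*, ranged from 271 to 1216 CPM in vehicle tumors and from 289 to 2084 CPM in IL-33 tumors, with 6 of the 11 higher by edgeR at an unadjusted p under 0.05, beside 9.99% of all tested genes, and 5 of the 11 without IL-33 replicate 7, beside 1.83% of all tested genes. The exact permutation test of the sum gave p = 0.0566, and 0.0963 without that tumor. *Sdc1* made up much of the low sums, and the 10 other genes summed to between 23.1 and 958 CPM in vehicle tumors and between 38.0 and 1885 CPM in IL-33 tumors (exact permutation p = 0.0923). In IL-33 replicates 4, 7 and 8 the plasma cell sum was 2084, 1246 and 1546 CPM, with *Xbp1* at 215, 342 and 211 CPM. Vehicle replicate 2 and IL-33 replicate 5 had sums of 1216 and 827 CPM, with *Xbp1* at 165 and 149 CPM. IL-33 replicates 1 and 2 had sums of 457 and 384 CPM, with *Xbp1* at 208 and 215 CPM. IL-33 replicate 7 is also the library with the uterus, oviduct and ovary transcripts. *Tnfrsf17* of that list was at 0 in 4 tumors. The part of plasma cells in the *Xbp1* levels was not tested.

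*Sdf2l1* encodes an ER protein that works with BiP and its cochaperones. Vehicle tumors ranged from 33.2 to 82.5 CPM with a median of 48.8 CPM, and IL-33 tumors from 26.4 to 80.0 CPM with a median of 39.5 CPM. A high tumor in each group, vehicle replicate 7 and IL-33 replicate 3, extended overlapping ranges, and 2 of 8 IL-33 tumors exceeded the mean of the vehicle tumors. The fitted value was -0.31 (SE 0.21, p = 0.151 by edgeR, exact permutation p = 0.300), and -0.25 (SE 0.21, p = 0.254, exact permutation p = 0.379) without IL-33 replicate 7. With IL-33 replicate 3 left out it was -0.48, with an unadjusted p of 0.0158 by edgeR and an adjusted p of 0.366. Among the fits that left out 1 tumor, this was the single case in which any of the 10 genes passed an unadjusted p of 0.05. For scale, 11.2% of all tested genes passed in either direction with no tumor left out, so 1 of 10 does not stand out. Without IL-33 replicate 3, 85.8% of the genes that passed, of 16784 tested, were higher.

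**Figure D2:**
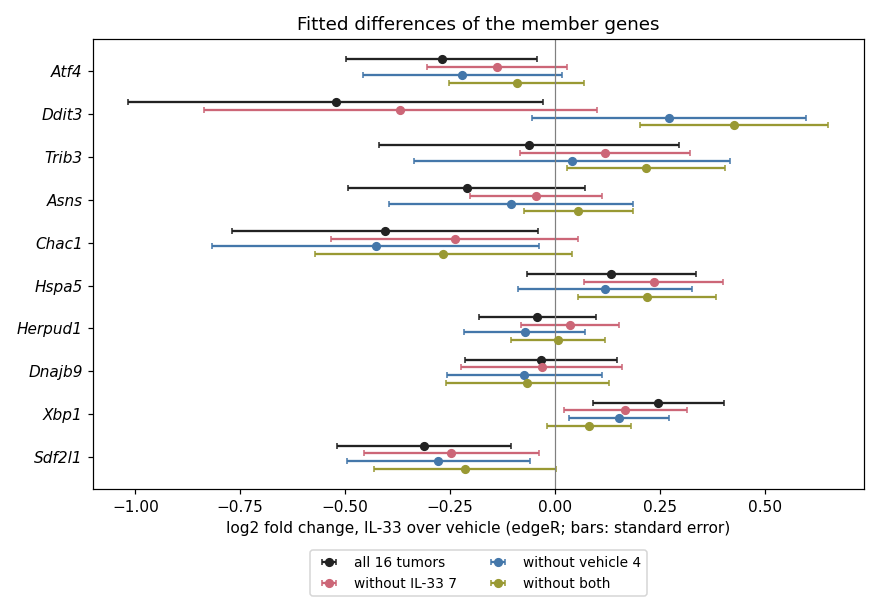
Log2 fold change of the IL-33 over the vehicle group (horizontal axis) for each of the 10 genes by edgeR, with a standard error derived from the F statistic as a bar, over 16 tumors and with IL-33 replicate 7, vehicle replicate 4 or both left out. *Ddit3* moved from -0.52 to 0.43 when both libraries were left out, and *Xbp1* from 0.25 to 0.08.

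Per kilobase of merged exon, *Hspa5* had the highest mean level over the 16 tumors, 308 CPM per kb (SD 77.1), and was above *Atf4*, the next, in each of 16 tumors. *Atf4* (188 CPM per kb, SD 54.4) was above *Ddit3* (102 CPM per kb, SD 70.3) in 14 tumors. *Ddit3* and *Asns* (82.5 CPM per kb, SD 23.6) did not differ beyond their spread, with *Ddit3* the higher in 9 tumors. Nor did the next 3 genes, *Trib3* (64.9 CPM per kb, SD 24.0), *Herpud1* (59.5 CPM per kb, SD 11.5) and *Xbp1* (57.5 CPM per kb, SD 17.3), which formed the middle of the order. *Sdf2l1* (44.4 CPM per kb) was above *Dnajb9* (21.0 CPM per kb) in 16 tumors, and *Chac1* was the lowest, at 10.8 CPM per kb.

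The genes also differed in how much they varied from tumor to tumor. The coefficient of variation over the 16 tumors was highest for *Ddit3*, at 69.3%, and lowest for *Herpud1*, at 19.3%. Without vehicle replicate 4 and IL-33 replicate 7 it was 31.7% for *Ddit3*, 13.8% for *Herpud1* and 13.0% for *Xbp1*, while that of *Chac1* was 45.9% over 16 tumors and 38.8% over 14. The ratio of the highest to the lowest tumor was 13.9 for *Trib3* over 16 tumors and 2.90 over 14.

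Some genes of each arm varied together across tumors. Correlations were computed on log2(CPM + 0.5) for the 45 pairs of the 10 genes, with permutation p-values adjusted over the 45. By Pearson's r 10 pairs, and by Spearman's rho 7 pairs, had an adjusted p under 0.05, and the 7 were among the 10. They comprise 5 pairs of the ATF4 arm, *Atf4* with *Trib3* and with *Chac1* and the 3 pairs among *Trib3*, *Asns* and *Chac1*, and 2 pairs of the ER arm, *Herpud1* with *Dnajb9* and *Dnajb9* with *Xbp1*. The pairs called by r alone were *Atf4* with *Asns* and, across the arms, *Ddit3* with *Xbp1* and *Atf4* with *Sdf2l1*. With CPM on the TMM-scaled library size, 9 pairs by r and 3 by rho had an adjusted p under 0.05. The 3 were *Trib3* with *Asns*, *Dnajb9* with *Xbp1* and *Atf4* with *Sdf2l1*, so 5 of the 7 pairs named above missed it by rho on that scale.

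*Trib3* and *Asns* were the closest pair. Pearson's r was 0.96 (permutation p = 1e-05, the smallest that the resamples can give; adjusted p = 0.00045) and Spearman's rho was 0.85 (permutation p = 4e-05, adjusted p = 0.0018). Without the 2 tumors farthest from the *Trib3* median, IL-33 replicate 7 and vehicle replicate 3, r was 0.76. The relation was present within each group, with rho at 0.76 in the vehicle tumors and 0.95 in the IL-33 tumors, and on TMM-scaled CPM rho was 0.80 (adjusted permutation p = 0.0175).

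*Asns* and *Chac1* had r = 0.78 (permutation p = 0.00033, adjusted p = 0.00371) and rho = 0.78 (permutation p = 0.00064, adjusted p = 0.013). Without the 2 tumors farthest from the *Asns* median, IL-33 replicates 6 and 7, r was 0.56, and without IL-33 replicate 7 alone rho was 0.73. Within the IL-33 tumors rho was 0.98 and within the vehicle tumors 0.55. On TMM-scaled CPM this rho was 0.59 (adjusted permutation p = 0.116), past the threshold no longer.

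*Trib3* and *Chac1* showed r = 0.74 (permutation p = 0.0017, adjusted p = 0.0095) and rho = 0.68 (permutation p = 0.00469, adjusted p = 0.039). Within the IL-33 tumors rho was 0.98 and within the vehicle tumors 0.29. It was 0.61 without IL-33 replicate 7 (adjusted permutation p = 0.0885), and r was 0.56 without the 2 tumors farthest from the *Trib3* median.

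For *Atf4* and *Chac1*, r was 0.82 (permutation p = 0.00024, adjusted p = 0.0036) and rho was 0.67 (permutation p = 0.0052, adjusted p = 0.039). For *Atf4* and *Trib3*, r was 0.80 (permutation p = 0.00116, adjusted p = 0.00861) and rho was 0.70 (permutation p = 0.00349, adjusted p = 0.039). Leaving out the 2 tumors farthest from the *Atf4* median, IL-33 replicates 5 and 7, lowered r to 0.55 for the first pair and 0.53 for the second. Without IL-33 replicate 7 both pairs missed the adjusted threshold on rho, and on r the pair with *Trib3* did (r = 0.55, adjusted permutation p = 0.133) and the pair with *Chac1* did not (r = 0.69, adjusted permutation p = 0.0294). *Atf4* with *Asns* had r = 0.79 (permutation p = 0.00122, adjusted p = 0.00861) and rho = 0.59 (permutation p = 0.0175, adjusted p = 0.0875), and without that tumor r was 0.55 (adjusted permutation p = 0.133).

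*Atf4* and *Sdf2l1*, a pair across the arms, had r = 0.63 (permutation p = 0.00898, adjusted p = 0.0404) and rho = 0.63 (permutation p = 0.0102, adjusted p = 0.0573). This r was 0.72 without IL-33 replicate 7 (adjusted permutation p = 0.0272) and 0.77 without the 2 tumors farthest from the *Atf4* median.

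On plain CPM *Ddit3* had no adjusted p under 0.05 with another gene of the arm. Its rho was -0.06 with *Atf4*, 0.13 with *Trib3*, -0.17 with *Asns* and -0.09 with *Chac1* over the 16 tumors (permutation p = 0.821, 0.624, 0.527 and 0.737; adjusted p = 0.899 for each). The matching r were 0.23, 0.55, 0.46 and 0.12 (permutation p = 0.358, 0.0700, 0.115 and 0.639; adjusted p = 0.556, 0.242, 0.272 and 0.744), and without IL-33 replicate 7 they were -0.35, 0.00, -0.30 and -0.43. Its r with *Xbp1* was -0.82 (permutation p = 0.0019, adjusted p = 0.0095) with rho = -0.46 (permutation p = 0.0713, adjusted p = 0.267), and r was -0.76 without IL-33 replicate 7 (adjusted permutation p = 0.117) and -0.16 once vehicle replicate 4 was left out as well. That relation rests on those 2 tumors. On TMM-scaled CPM *Ddit3*, *Trib3* and *Asns* were each highest in vehicle replicate 4 and lowest in IL-33 replicate 7.

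In the ER arm, *Dnajb9* and *Xbp1* had r = 0.76 (permutation p = 5e-05, adjusted p = 0.00112) and rho = 0.77 (permutation p = 0.00087, adjusted p = 0.013). Within each group rho was 0.83, without the 2 tumors farthest from the *Dnajb9* median r was 0.62, and on TMM-scaled CPM rho was 0.74 (adjusted permutation p = 0.0342) while r was 0.54 (adjusted permutation p = 0.105). *Herpud1* and *Dnajb9* had r = 0.72 (permutation p = 0.00134, adjusted p = 0.00861) and rho = 0.65 (permutation p = 0.00719, adjusted p = 0.0462), and r was 0.80 without the 2 tumors farthest from the *Herpud1* median. On TMM-scaled CPM this pair missed the threshold by r (0.58, adjusted permutation p = 0.0799) and by rho (0.59, adjusted permutation p = 0.116), as it did without vehicle replicate 4, where r was 0.57 (adjusted permutation p = 0.0912) and rho 0.58 (adjusted permutation p = 0.130).

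*Herpud1* and *Xbp1* ran in parallel except in 1 tumor. Over the 16 tumors r was 0.59 (permutation p = 0.0334, adjusted p = 0.125) and rho was 0.55 (permutation p = 0.0304, adjusted p = 0.124). Without IL-33 replicate 7, where *Xbp1* was highest and *Herpud1* among the lowest, r was 0.90 (adjusted permutation p = 0.00045) and rho was 0.825 (adjusted permutation p = 0.0057). Without vehicle replicate 4 as well, r was 0.78.

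*Hspa5* had no partner among the 10 at an adjusted p under 0.05 over the 16 tumors, though by r it had partners when libraries were left out. With *Ddit3* its r was 0.11 (adjusted permutation p = 0.744) over 16 tumors, 0.82 (adjusted permutation p = 0.0109) without vehicle replicate 4 and 0.74 (adjusted permutation p = 0.0409) without both libraries that stood apart, where rho was 0.44 (adjusted permutation p = 0.348). There its r with *Asns* was -0.62 (adjusted permutation p = 0.0499) and rho was -0.60 (adjusted permutation p = 0.130). Over the 16 tumors the rho of *Hspa5* with *Herpud1*, *Dnajb9*, *Xbp1* and *Sdf2l1* was 0.36, 0.14, -0.06 and 0.36 (permutation p = 0.173, 0.596, 0.833 and 0.173; adjusted p = 0.532, 0.899, 0.899 and 0.532), with r at 0.46, 0.20, 0.25 and 0.05 (permutation p = 0.0763, 0.450, 0.300 and 0.864; adjusted p = 0.245, 0.633, 0.529 and 0.921). Without the 2 tumors farthest from the *Hspa5* median, IL-33 replicate 6 and vehicle replicate 4, these r were 0.59, 0.03, -0.50 and 0.57. Whether the groups differ in these relations was not tested.

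**Figure D3:**
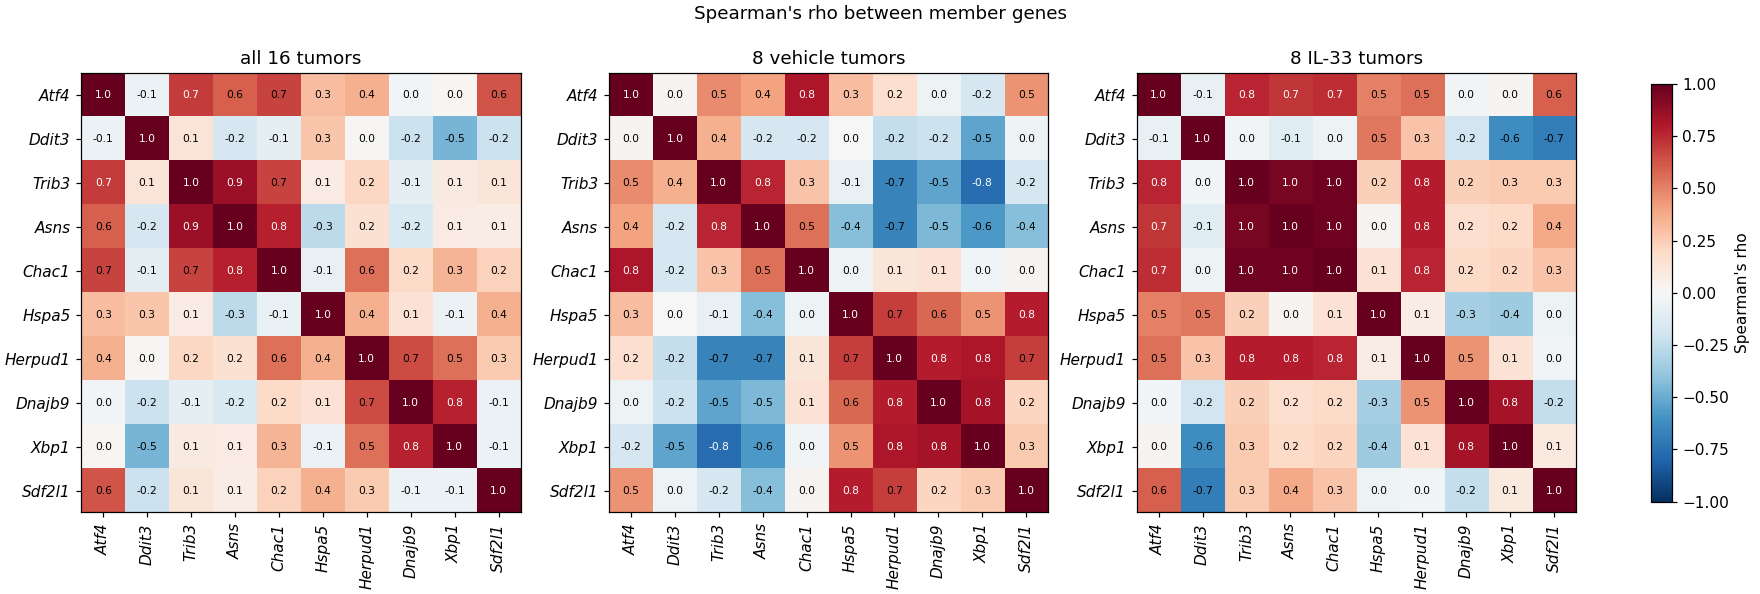
Spearman's rho (color, from -1 to 1, and printed to 1 decimal) between each pair of the 10 genes over 16 tumors, over 8 vehicle tumors and over 8 IL-33 tumors. *Trib3*, *Asns* and *Chac1* form a block in the IL-33 tumors, and *Dnajb9* with *Xbp1* has a rho of 0.83 in each group. Across the arms, *Herpud1* has a rho of 0.79, 0.79 and 0.76 with *Trib3*, *Asns* and *Chac1* in the IL-33 tumors. The matching values are -0.67, -0.67 and 0.12 in the vehicle tumors and 0.21, 0.16 and 0.55 over 16 tumors.

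Among 13099 other genes with a mean of at least 1 CPM, those whose ranks over the 16 tumors were most like *Trib3* were *Gnpnat1* (rho 0.90), *Steap1* (0.89), *Gdf15* (0.88), *Wars* (0.88) and *Klra4* (0.86). *Gdf15*, a secreted stress cytokine, was 5.30 CPM in IL-33 replicate 7 and between 13.4 and 50.8 CPM in the other tumors, and *Wars*, the tryptophanyl-tRNA synthetase, was 78.9 CPM there and up to 253 CPM in vehicle replicate 2. The genes most like *Hspa5* were *Snapc1* (rho 0.78), *Rab1a* (0.75), *Sox2* (0.75), *Psap* (0.73) and *Raet1d* (0.73), of which *Rab1a* acts in transport from the ER to the Golgi. These are the highest of many coefficients and carry no test.

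The other genes of both pathways were read as lists, beside all tested genes, of which 1680 were higher, 196 lower and the median log2 fold change was 0.06. Among 14 genes of the eIF2 kinases and eIF2 regulation and 10 of the ER stress sensors and their processing, 0 passed an unadjusted p of 0.05 by edgeR, with median log2 fold changes of -0.01 and 0.02. *Eif2s1*, the phosphorylated subunit of eIF2, had means (± SD, n = 8 for each group here and below) of 139.7 ± 28.7 CPM for vehicle and 135 ± 31.9 CPM for IL-33. *Ppp1r15b*, the constitutive partner of its phosphatase, was at 119 ± 32.1 and 122 ± 32.1 CPM. The sensor *Atf6* was at 118 ± 43.6 and 121 ± 31.1 CPM, and *Mbtps1*, the protease that cuts it first, at 150.3 ± 47.5 and 159.8 ± 36.3 CPM. Levels of these 4 genes overlapped between the groups.

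In vehicle replicate 4 the summed level of the 10 sensor genes was 316 CPM, where the other 15 tumors had between 544 and 862 CPM. On TMM-scaled CPM the sum was 494 CPM, against 531 to 879 CPM in the others. On plain CPM *Atf6* was 30.9 CPM and *Ern1*, which encodes IRE1, 29.8 CPM. *Eif2ak3*, which encodes PERK, was 8.35 CPM in that tumor and between 22.1 and 44.6 CPM in the others. In this tumor, in which *Ddit3* was at its highest, 6 of the 10 sensor genes were at their lowest of the 16 (3 on TMM-scaled CPM), as were 48.4% of tested genes with a mean of at least 1 CPM (26.3% on TMM-scaled CPM), and *Traf2* of the same list was at its highest. *Ern1*, *Eif2ak3* and *Traf2* were chosen here after their values were seen.

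Of 13 partners of ATF4 and stress targets, 0 were higher and 1 was lower, with a median log2 fold change of -0.05. That median turned to 0.03 without vehicle replicate 4 and to 0.01 without both libraries that stood apart. In the latter setting 1 of the 13 was higher and 0 lower, beside 2.10% of all tested genes higher. The gene lower over 16 tumors was *Atf5*, a stress-induced relative of ATF4, with means of 425 CPM (SD 69.3) for vehicle and 304 CPM (SD 119.8) for IL-33. The fit gave a log2 fold change of -0.63 (SE 0.28), with p = 0.0363 and an adjusted p of 0.420 by edgeR and an exact permutation p of 0.0277, a test added for the list genes after their values were seen. A single IL-33 tumor of 8 exceeded the mean of the vehicle tumors. IL-33 replicates 5, 6 and 7, the tumors low in *Atf4* and *Chac1*, were also the lowest for *Atf5*, at 230.3, 151 and 119 CPM. The call held without IL-33 replicate 7 (p = 0.0450 by edgeR, exact permutation p = 0.0454) and was lost with vehicle replicate 4 left out as well, at -0.30 (p = 0.106, exact permutation p = 0.104). By edgeR it was lost without vehicle replicate 4 (p = 0.107), vehicle replicate 5 (p = 0.0545), vehicle replicate 6 (p = 0.0526), IL-33 replicate 5 (p = 0.0644) or IL-33 replicate 6 (p = 0.0719), and by the exact permutation test without vehicle replicate 4 (p = 0.0716), 5 (p = 0.0634), 6 (p = 0.0615) or 8 (p = 0.0547). Without IL-33 replicate 7, *Sesn2*, a stress-induced regulator of mTORC1 singled out after its values were seen, had a log2 fold change of 0.39 (p = 0.0106 by edgeR, exact permutation p = 0.0266), against 0.28 (p = 0.133, exact permutation p = 0.132) over 16 tumors. The exact permutation p of *Sesn2* was 0.0466 without both libraries and 0.260 without vehicle replicate 4. *Ddit4*, the most abundant of the list beside *Atf5*, was between 52.3 and 682 CPM and differed little between the group means (194 CPM, SD 105, and 230.1 CPM, SD 209).

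Amino acid synthesis and transport had 1 of 18 genes higher and 0 lower, with a median log2 fold change of -0.05. The median was 0.03 without IL-33 replicate 7, -0.11 without vehicle replicate 4 and 0.05 without both. The higher gene, *Cbs* of cysteine synthesis, had 1069 counts (60.9 CPM) in IL-33 replicate 7, 3 in vehicle replicate 2, 2 in vehicle replicate 4 and 0 in the other 13 tumors, so its call by edgeR rests on 1 library, and its exact permutation p was 1.0. The serine synthesis enzyme *Phgdh* had means of 501 ± 124 CPM for vehicle and 433 ± 192 CPM for IL-33, and mitochondrial *Shmt2* at 528 ± 101 and 471 ± 185 CPM. Both were at their lowest in IL-33 replicate 7, at 72.7 and 99.6 CPM, and overlapped between the groups.

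The cytosolic tRNA synthetases, many of which ATF4 induces, had 0 of 20 genes past the threshold and a median log2 fold change of -0.09 (0.04 without IL-33 replicate 7). *Aars* was at 578 ± 47.8 and 500.2 ± 164 CPM and *Gars* at 468 ± 83.8 and 455 ± 148 CPM for vehicle and IL-33. What set this list apart was IL-33 replicate 7, where 15 of the 20 genes had their lowest level of the 16 tumors and the sum was 1940 CPM, against 3721 to 5136 CPM in the other 15 tumors. Over all tested genes, 10.1% had their lowest level in IL-33 replicate 7 and 43.0% their highest. Other lists also had many genes lowest in that tumor, among them 9 of 18 in the amino acid list, 6 of 12 in cytosolic heat shock and 8 of 19 ER chaperones. On TMM-scaled CPM the share over all tested genes was 20.7%. Among genes with a mean of at least 1 CPM it was 26.0%, and 12.5% on plain CPM. The TMM-scaled counts were 18 of 20 tRNA synthetases, 12 of 18 in the amino acid list, 8 of 12 in cytosolic heat shock and 11 of 19 ER chaperones. They were 10 of 16 in ER-associated degradation, 8 of 13 ATF4 partners and 10 of 21 in ER import. The eIF2 list had 5 of 14 and the sensor list 1 of 10.

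Of 19 ER chaperones and folding enzymes, 0 were higher and 1 was lower, with a median log2 fold change of -0.18 (-0.10 without IL-33 replicate 7, -0.11 without vehicle replicate 4 and -0.05 without both). *Calr*, the calcium-binding chaperone calreticulin, had means of 1437 CPM (SD 149) for vehicle and 1163 CPM (SD 226) for IL-33. Its log2 fold change of -0.41 (SE 0.18) had p = 0.0330 and an adjusted p of 0.418 by edgeR and an exact permutation p of 0.0138, and 1 IL-33 tumor of 8 exceeded the mean of the vehicle tumors. The value was -0.32 without IL-33 replicate 7 (p = 0.0387 by edgeR, exact permutation p = 0.0263) and -0.22 without both libraries that stood apart (p = 0.0482, exact permutation p = 0.0355). By edgeR the call was lost without vehicle replicate 4 (p = 0.0686), vehicle replicate 5 (p = 0.0533), IL-33 replicate 1 (p = 0.0522) or IL-33 replicate 5 (p = 0.0574), where the exact permutation test gave 0.0207, 0.0281, 0.0213 and 0.0246. *Hsp90b1*, the ER member of the Hsp90 family, was at 1415 ± 165 and 1283 ± 317 CPM, and the disulfide isomerase *P4hb* at 1367 ± 154 and 1316 ± 257 CPM, within the spread of the tumors.

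ER-associated degradation had 1 of 16 genes higher and 0 lower, with a median log2 fold change of 0.00. Without both libraries that stood apart, 2 of the 16 were higher and 0 lower, beside 2.10% of all tested genes higher. The gene higher over 16 tumors was *Derl3*, a derlin of secretory cells, which was at most 1.53 CPM in vehicle tumors. It reached 12.3 CPM in IL-33 replicate 7, 8.47 CPM in replicate 4 and 5.68 CPM in replicate 8, with 0 counts in replicate 6. The fitted log2 fold change was 2.87 (SE 0.95) with p = 0.00753 and an adjusted p of 0.418 by edgeR and an exact permutation p of 0.0365, and 6 IL-33 tumors of 8 exceeded the mean of the vehicle tumors. Without IL-33 replicate 7 it was 2.45, with p = 0.0139 by edgeR, while the exact permutation p of 0.0693 missed the threshold. The exact permutation test also missed it without vehicle replicate 1 (p = 0.0623), 3 (p = 0.0514), 4 (p = 0.0542), 5 (p = 0.0595), 6 (p = 0.0577) or 8 (p = 0.0587). The exact permutation p was 0.0685, 0.0601 and 0.0674 when IL-33 replicate 4, 5 or 8 was left out, and 0.0973 without both libraries that stood apart. The tumors highest for *Derl3* had plasma cell sums of 1246, 2084 and 1546 CPM, and the part of plasma cells in this result was not tested. The abundant *Vcp*, which extracts proteins from the ER membrane, was at 518 ± 72.5 CPM for vehicle and 514 ± 57.5 CPM for IL-33.

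ER import and early secretion had 0 of 21 genes past the threshold, with a median log2 fold change of -0.05. That median turned to 0.02 without vehicle replicate 4 and to 0.08 without both libraries that stood apart. The channel gene *Sec61a1* was at 529 ± 47.8 and 521 ± 94.7 CPM, and *Ssr3*, of the translocon-associated complex, at 619 ± 165 and 639 ± 128 CPM. Cytosolic heat shock, another stress response, had 0 of 12 genes past the threshold and a median log2 fold change of -0.12 (-0.05 without vehicle replicate 4), with *Hsp90ab1* at 2919 ± 292 and 2915 ± 290 CPM and *Hspa8* at 2640 ± 193 and 2522 ± 524 CPM. Differences in both lists were smaller than the spread between tumors.

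As a description, the promoters of the 10 genes were searched for motifs through which these pathways are known to act. The windows, from RefSeq (GRCm38.p6), ran from 250 bases before to 50 after the start of a gene, and each of the 10 genes had 1. The ER stress element ERSE (CCAAT, any 9 bases, CCACG) was found in 39 of 32851 promoters on either strand (0.119%), ERSE-II (ATTGG, any base, CCACG) in 12 (0.0365%), the UPR element core TGACGTGG in 222 (0.676%) and the C/EBP-ATF composite core TTGCATCA in 294 (0.895%). Of the 10 genes, *Hspa5* held ERSE, *Herpud1* held ERSE-II and the composite core, and *Chac1* held the composite core, each on the plus strand, and the UPR element core was in 0. The stretches around these matches are printed with the motifs in capitals, all upstream of the RefSeq start and on the plus strand, from chr2:34771985-34772083 for *Hspa5*, chr2:119351009-119351096 for *Chac1* and chr8:94386277-94386427 for *Herpud1*. The motif of *Hspa5* begins 65 bases and that of *Chac1* 193 bases before the start, and those of *Herpud1* begin 112 and 52 bases before it. The RefSeq start of *Hspa5* lies 120 bases downstream of the GENCODE start, so its stretch falls inside the GENCODE locus given below. A match describes the letters in the window and not a bound site. Only these exact letters were searched, so the lack of a match does not show that a gene lacks such an element.
Hspa5: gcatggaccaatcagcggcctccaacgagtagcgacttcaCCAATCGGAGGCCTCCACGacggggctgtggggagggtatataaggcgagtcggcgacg
Chac1: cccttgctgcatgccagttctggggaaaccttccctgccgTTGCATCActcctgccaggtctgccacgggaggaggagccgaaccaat
Herpud1: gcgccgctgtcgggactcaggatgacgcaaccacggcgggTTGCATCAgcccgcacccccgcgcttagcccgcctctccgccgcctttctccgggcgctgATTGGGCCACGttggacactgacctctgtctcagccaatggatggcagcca

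The 10 genes lie on 8 chromosomes of GRCm38, with *Trib3*, *Chac1* and *Hspa5* on chromosome 2, and the 3 windows with a match belong to genes of both arms. *Chac1* has its 3 merged exons at chr2:119351229-119354381 on the plus strand, *Hspa5* its 7 at chr2:34771970-34777547 on the plus strand and *Trib3* its 4 at chr2:152337422-152344032 on the minus strand. *Ddit3*, whose level set apart vehicle replicate 4, has 4 merged exons at chr10:127290774-127296288 on the plus strand, and *Xbp1* has 4 at chr11:5520659-5525893 on the plus strand.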

How the data were processed

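Poly(A) RNA was sequenced from 16 tumors, 8 from mice given vehicle and 8 from mice given IL-33. The values used are the raw counts per gene that the authors deposited, made per the submitters' processing notes with HISAT2 and featureCounts on mm10. The strand setting and the annotation release are not given in the sources used here. Genes were named with GENCODE M21 (GRCm38). Of 22298 genes, 22255 had a symbol and 39 shared one and are called by ID, except where 1 gene held at least 99% of the counts of the symbol. Totals were 14139268 to 24290794 counts per tumor.

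Counts were divided by the total count of each tumor (CPM). Genes with a summed count of at least 10 were tested with edgeR 4.0.16 (TMM scaling, quasi-likelihood test, R 4.3.3), with Benjamini-Hochberg adjustment over all tested genes. This test gives no standard error, so the SE of its fits was derived as the absolute log2 fold change over the square root of the F statistic. Group differences of log2(CPM + 0.5) were tested over all 12870 assignments of 8 against 8 tumors. Correlations used 100000 permutations, adjusted over 45 pairs, with exact or resampled p as stated. Alternatives were DESeq2 1.42.0, limma 3.58.1 (voom with sample quality weights), upper-quartile scaling, filterByExpr and no filter, a replicate block, pseudocounts of 0.1 and 2, TMM-scaled CPM, and leaving out each tumor, or vehicle replicate 4 and IL-33 replicate 7 together. Python 3.11.15 with numpy 2.4.6, pandas 2.3.3 and SciPy 1.17.1 was used for the rest.

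The 10 genes, the 9 pathway lists (eIF2 kinases and regulation, ER stress sensors, ATF4 partners, amino acid synthesis and transport, tRNA synthetases, ER chaperones, ER-associated degradation, ER import, cytosolic heat shock) and the 17 marker lists were chosen with earlier results of these data known. Named from each pathway list were the genes past an unadjusted p of 0.05 and up to 2 of those with the highest mean CPM.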

Additional observations from a re-analysis of the deposited data

Results flagged for a closer look

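Of 20 groups of 8 tumors examined, 1 for each of the 10 genes in each treatment group, 5 held a tumor whose distance from its nearest neighbor was a large part of the range of the group. Chance gives about 1 in 20 such groups. *Ddit3* was at 578 CPM in vehicle replicate 4, far above the other vehicle tumors. *Hspa5* was at 2245 CPM in IL-33 replicate 6, far above the other IL-33 tumors. *Herpud1* was at 77.3 CPM and *Xbp1* at 60.6 CPM in vehicle replicate 4, both far below the other vehicle tumors on plain CPM. *Xbp1* was at 342 CPM in IL-33 replicate 7, far above the other IL-33 tumors. Vehicle replicate 4 accounts for 3 of the 5 and IL-33 replicate 7 for 1, and both also stood apart in marker genes. On TMM-scaled CPM, chosen after seeing the data, *Ddit3* (904 CPM) and *Hspa5* (2508 CPM) stood apart by the same measure, while *Herpud1* (121 CPM in vehicle replicate 4, next 126 CPM) and *Xbp1* (94.7 CPM in vehicle replicate 4, next 149 CPM, and 275 CPM in IL-33 replicate 7, next 219 CPM) did not. On that scale *Trib3* (12.9 CPM) and *Asns* (38.3 CPM) in IL-33 replicate 7 and *Sdf2l1* (78.0 CPM) in IL-33 replicate 3 did. The causes were not tested.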

How the results depend on the processing

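Of 230 fits of the 10 genes under alternatives, 209 kept their direction and their side of the threshold, 20 changed sign and 1 passed an unadjusted p of 0.05; adjusted p under 0.05 was reached by 0 genes under each of the 23 alternatives by edgeR, DESeq2 or limma, beside the unadjusted counts given here. The log2 fold change changed sign by DESeq2 for *Ddit3* (0.26), by limma voom for *Ddit3* (0.28), *Trib3* (0.32), *Asns* (0.12) and *Herpud1* (0.0071), and with IL-33 replicate 7 and vehicle replicate 4 both left out for *Ddit3* (0.43), *Trib3* (0.22), *Asns* (0.056) and *Herpud1* (0.0071). On TMM-scaled CPM the mean log2 difference was -0.065 for *Herpud1* and -0.034 for *Dnajb9*, and 3 pairs passed on Spearman's rho. Leaving out 1 tumor at a time gave -0.40 to -0.14 for *Atf4*, -0.75 to 0.27 for *Ddit3*, -0.17 to 0.12 for *Trib3*, -0.28 to -0.04 for *Asns*, -0.57 to -0.24 for *Chac1*, -0.049 to 0.24 for *Hspa5*, -0.12 to 0.036 for *Herpud1*, -0.15 to 0.039 for *Dnajb9*, 0.15 to 0.30 for *Xbp1* and -0.48 to -0.22 for *Sdf2l1*, with 0 to 1 of the 10 lower at an unadjusted p under 0.05. Genes higher at that p numbered 424 by DESeq2, 499 with filterByExpr, 522 by limma voom, 246 with the replicate block, 330 with both libraries left out and 289 to 1902 with 1 tumor left out; genes lower numbered 444 by limma voom, 72 with the block, 329 with both left out and 111 to 362 with 1 left out. The labels do not say whether replicate numbers pair the groups. In their deviations from the group mean, same-number tumors correlated at -0.32 to 0.35, and 1 of 8 vehicle tumors correlated best with its own number. These values do not settle whether the numbers pair the groups. Correlations without vehicle replicate 4 were an alternative chosen after seeing the data. Fewer tumors or genes enter some of these fits; otherwise the cause was not tested.

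Limits: whether tumors share a mouse is not known, whole tumors mix cell types, counts per gene do not separate *Xbp1* splice forms or show translation of *Atf4*, and with 8 tumors per group the standard errors of the 10 genes were 0.14 to 0.49 on the log2 scale.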

Other observations

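Marker lists gave these values by edgeR at an unadjusted p under 0.05, beside 9.99% of all tested genes higher and 1.17% lower, with the causes not tested. Of the 5 red blood cell genes, 4 were lower in the IL-33 tumors (exact permutation p = 0.0491 for the sum), with 5 lower without IL-33 replicate 7 (exact permutation p = 0.00466), 0 without vehicle replicate 4 (exact permutation p = 0.0960) and 4 without both (exact permutation p = 0.00816). In these settings 2.29%, 0.662% and 2.09% of all tested genes were lower. The sum was below the vehicle median of 705 CPM in 7 of 8 IL-33 tumors. Macrophage genes (7, led by *Lyz2*) and T cell genes (5, led by *Cd8a*) had 0 past the threshold, and summed to 531 to 2528 CPM and 2.97 to 53.2 CPM per tumor. Endothelial genes (4, led by *Pecam1*) had 0 past it and summed to 627 CPM in IL-33 replicate 7 and at most 191 CPM elsewhere, and fat genes (4, led by *Fabp4*) had 0 past it, with 2026 CPM there and at most 225 CPM elsewhere. Muscle genes (6, led by *Acta2*) had 3 higher, and 0 higher and 1 lower without IL-33 replicate 7, with 4572 CPM in IL-33 replicate 7 and at most 1011 CPM elsewhere. Mesothelial genes (4, led by *Msln*) had 1 higher, and 0 without IL-33 replicate 7. They summed to 309 to 1250.4 CPM, mostly *Msln*, which was lowest in IL-33 replicate 7 (92.5 CPM), where the 3 other genes summed to 216 CPM, against at most 7.31 CPM elsewhere. Pancreatic acinar genes (3 tested of 8, led by *Cela1*) had 1 higher, and 0 of 1 tested without IL-33 replicate 7, at most 11.8 CPM in sum. Liver genes (6, led by *Alb*) had 3 lower (4 without IL-33 replicate 7), with 35.9 CPM in vehicle replicate 2 and at most 8.60 CPM elsewhere. Of the 7 epithelial genes 3 were higher, and 0 without IL-33 replicate 7, where 1 was lower. *Epcam*, *Cdh1* and *Krt18* were at 98.8, 104 and 159 CPM in that tumor and at most 2.40, 3.01 and 1.83 CPM elsewhere. The epithelial sum was 236 to 1546 CPM, with means of 731 CPM for vehicle and 642 CPM for IL-33.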
